A study of Homo sapiens with 16 samples.

Results

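The matrix metalloproteases (MMP), the ADAM and ADAMTS metalloproteases, the ADAMTS-like proteins (ADAMTSL) and the tissue inhibitors of metalloproteases (TIMP) were followed in Sorafenib-resistant hepatocellular carcinoma (HCC) cells. Members were all genes whose symbol is one of these family names followed by a number, leaving out antisense genes and pseudogenes, which gave 71 of the 26258 genes of the expression table. Of these, 39 reached at least 1 CPM (counts of a gene scaled to the library total) in at least 2 of the 16 libraries and are described in detail. They are 8 of 23 MMP, 12 of 20 ADAM, 12 of 19 ADAMTS, 3 of 5 ADAMTSL and 4 of 4 TIMP genes. The remaining 32 are accounted for at the end.

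Poly-A+ RNA of the HCC cell lines Huh7 and Hep3B was sequenced in 8 groups of 2 libraries. In each line, the parental cells and the cells labelled DMSO carry the label Untreated, and what the DMSO cells went through is not described further in the sources used here. The lines IR and CR were made resistant by raising the Sorafenib concentration step by step (IR) or by a constant high concentration (CR), and both are labelled Sorafenib at 7 µM. IR and CR cells were kept in the drug while parental cells were not, so resistance and the presence of Sorafenib cannot be told apart. The study's methods describe biological triplicates, and the labels give 2 libraries a group without naming their cultures. The p-values therefore rest on the spread between the 2 libraries of a group, pooled over all 8 groups. Whether these libraries come from separate cultures is not known. The 2 parental libraries of a line served as reference for its IR and its CR cells alike.

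The MMPs are zinc endopeptidases that are secreted or anchored in the plasma membrane and cut collagens, other matrix proteins and growth factor precursors. ADAM proteases are membrane proteins, several of which release the ectodomains of ligands, receptors and adhesion molecules, whereas ADAMTS proteases are secreted and process procollagens, proteoglycans and fibrillin-associated proteins. TIMPs bind the active site of MMPs, and some also inhibit certain ADAM and ADAMTS enzymes. In the liver the balance of MMPs and TIMPs is best known from the turnover of fibrotic matrix.

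Library totals ranged from 46613302 to 76860251 reads, so that a count of 0 allows up to 0.039 to 0.064 CPM, a limit that covers counting error only. Replicates spread most in Huh7 DMSO and Huh7-IR cells, where the SD of the log2 difference between replicates over all tested genes was 0.571 and 0.566, against 0.236 to 0.310 in the other groups. Hepatocyte markers were present in the parental cells, with a list of 10 markers summing to 10710 and 16251 CPM in Huh7 and 17152 and 21248 CPM in Hep3B cells. In resistant cells they summed to 124 and 492 CPM in Huh7-IR, 3587 and 10347 CPM in Hep3B-IR, 1381 and 2810 CPM in Huh7-CR and 1326 and 2157 CPM in Hep3B-CR libraries. Of the 10 hepatocyte markers, 8 were called lower in Huh7-IR, 3 in Hep3B-IR, 7 in Huh7-CR and 6 in Hep3B-CR cells, and 1 was called higher, in Hep3B-IR cells (SERPINA1). Of 6 tested fibroblast and stellate markers, 5 were called higher and 1 lower in each resistant Huh7 line. COL1A1 and COL1A2 were among the higher ones and LUM was the lower one, while THY1 stayed under 0.1 CPM in every group. LUM had 277 and 329 CPM in Huh7 parental, 31.9 and 48.9 CPM in Huh7-IR and 117 and 231 CPM in Huh7-CR libraries. In Hep3B cells, 1 of the 6 markers was called higher and 1 lower in IR, and 1 higher and 0 lower in CR cells. All 8 genes of that list summed to 285 and 337 CPM in Huh7 parental, 316 and 340 CPM in Huh7-IR, and 499 and 782 CPM in Huh7-CR libraries. The same sum was 37.1 and 27.8 CPM in Hep3B parental, 86.9 and 33.2 CPM in Hep3B-IR, and 87.1 and 68.7 CPM in Hep3B-CR libraries. The 5 endothelial markers summed to at most 6.36 CPM in any library, and of the 5 blood markers CD3E and HBA1 stayed under 0.1 CPM. Of the 3 tested blood markers, 1 was called higher and 2 lower in Huh7-IR, and 1 and 1 in Huh7-CR cells. In each resistant Hep3B line, 1 was called higher and 0 lower. CD68 was the higher one in Huh7-IR cells and reached 71.9 CPM there, from 5.47 and 2.58 CPM in Huh7 parental libraries. It had 46.3 and 47.6 CPM in Huh7-CR libraries. In Hep3B cells CD68 had 7.46 and 10.3 CPM in parental, 18.2 and 32.9 CPM in DMSO, 37.1 and 51.2 CPM in IR and 38.6 and 27.6 CPM in CR libraries. In Huh7-IR cells PTPRC fell from 1.02 and 0.991 to 0.0663 and 0.0429 CPM, and CD14 from 2.66 and 3.95 to 0.464 and 1.33 CPM. Of the 4 epithelial markers (EPCAM, CDH1, KRT8 and KRT18), 0 were called higher and 2 lower in Huh7-IR, and 0 and 0 in Huh7-CR cells. In each resistant Hep3B line, 1 was called higher and 0 lower. The part of these shifts in the results below was not tested. In bulk RNA, fewer cells expressing a gene and less RNA per cell cannot be told apart.

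A gene was called higher or lower at a Benjamini-Hochberg adjusted p under 0.05 over all 15019 tested genes (limma on log2(CPM + 1)) with a log2 fold change of 0.58 or more in size. Values are given for libraries 1 and 2 of a group in CPM, and fold changes as log2 of CPM + 1 with their standard error, a scale that understates the change of genes near 0. Where 4 fold changes stand together, Huh7 comes before Hep3B and, within a line, IR before CR. In Huh7-IR cells, 14 of the 39 members were called higher and 10 lower, against 31.1% and 17.8% of all tested genes, and the median log2 fold change was 0.37 for the members and 0.192 for all genes. In Huh7-CR cells, 12 members were called higher and 6 lower, against 20.9% and 13.6% of all genes, with medians of 0.057 and 0.066. In Hep3B-IR cells, 12 were called higher and 6 lower, against 15.7% and 11.4%, with medians of 0.08 and 0.061. In Hep3B-CR cells, 13 were called higher and 3 lower, against 20% and 12.3%, with medians of 0.324 and 0.108. The shares of members called were 35.9% higher and 25.6% lower in Huh7-IR, 30.8% and 15.4% in both Huh7-CR and Hep3B-IR, and 33.3% and 7.69% in Hep3B-CR cells. The count includes 3 members, MMP7, ADAMTS15 and ADAM21, that reached 1 CPM in no parental or DMSO library and so entered through resistant libraries, and for this reason the counts are a description of the list. With the totals rescaled by TMM factors, the all-gene median in Huh7-IR cells moved from 0.192 to 0.04, the share of higher calls among all called genes from 63.6% to 52.8%, and the member calls to 12 higher and 10 lower. With quantile normalization, Hep3B-CR cells had 10 members called higher and 5 lower, and the share of higher calls among all called genes moved from 61.9% to 49.2%.

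**Figure D1:**
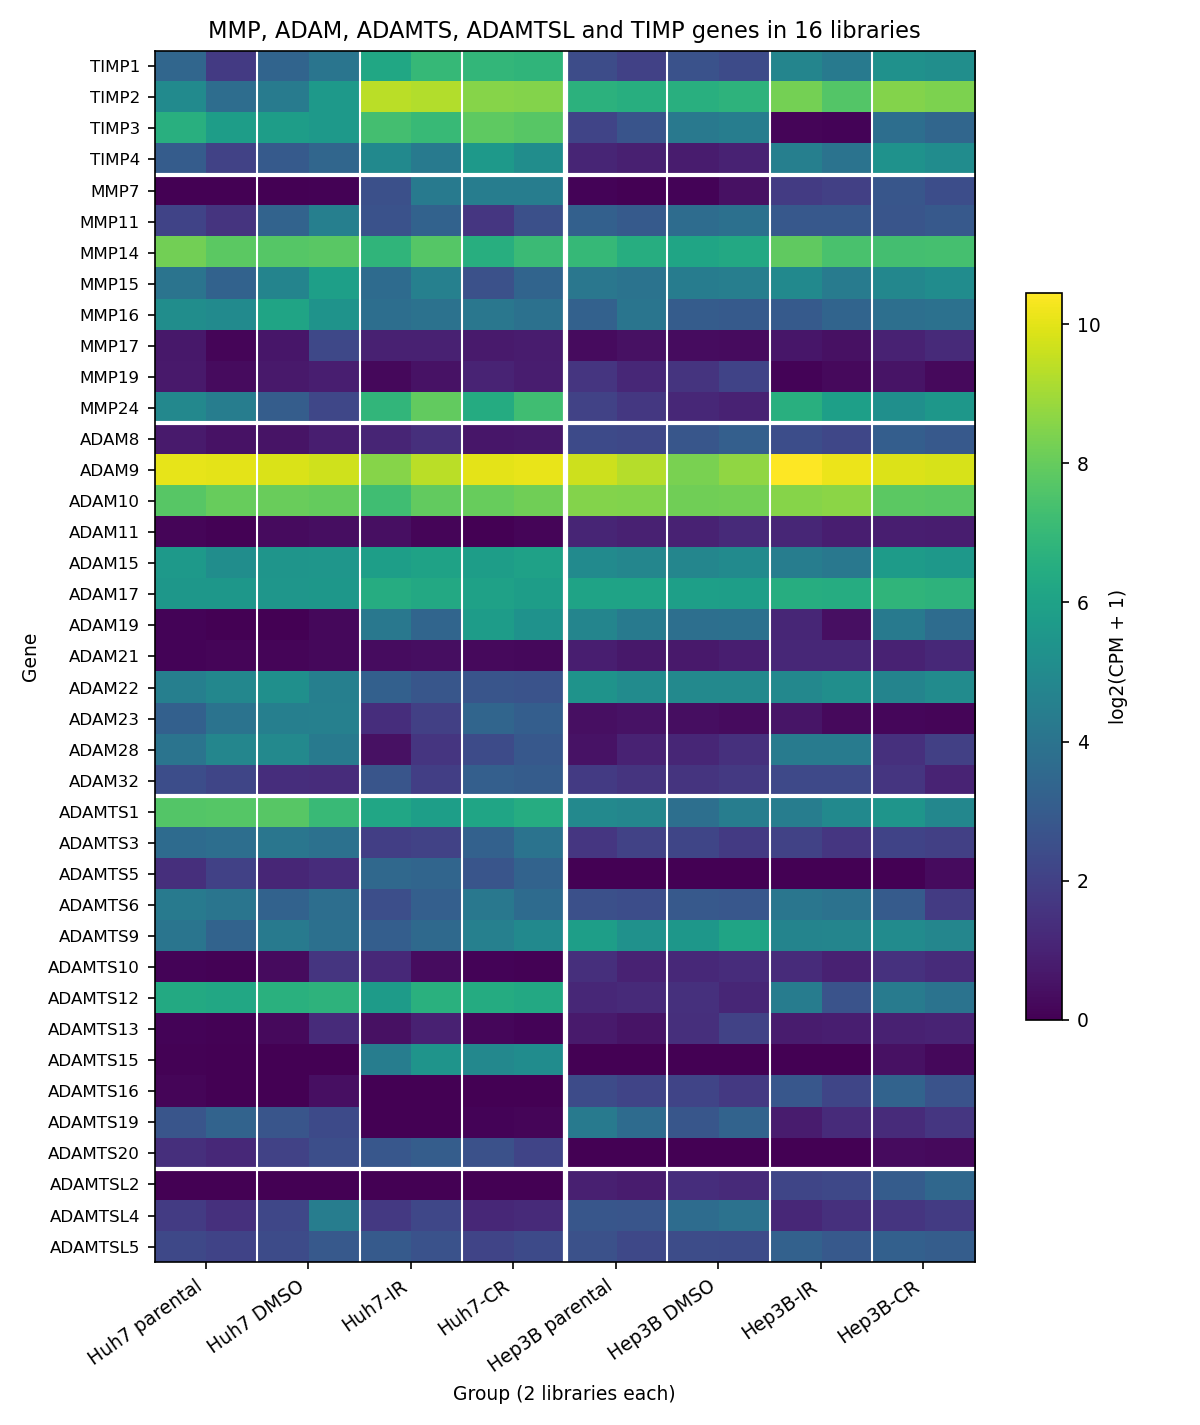
Levels of the 39 described members as log2(CPM + 1), genes in rows by family and the 16 libraries in columns, 2 per group. ADAM9 is the brightest row in every library but 1 of Huh7-IR cells, TIMP1, TIMP2 and TIMP4 brighten in the IR and CR columns of both lines, and MMP7 is near 0 outside them.

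Among the inhibitors, TIMP1, TIMP2 and TIMP4 were called higher in each of the 4 resistant lines, and so were the proteases MMP7 and MMP24. These 5 are 12.8% of the 39 members, against 5.28% of all tested genes called higher in all 4 lines, and the comparisons share the parental libraries of a line. MMP7 entered the list through resistant libraries only, so this share too is a description. The promoters of these 5 genes are shown because they moved together. RefSeq promoter sequence was at hand for 26 of the 39 members, and not for TIMP2. The 250 bases before the RefSeq start of the other 4 are printed 5′ to 3′ on the strand of the gene, from the RefSeq table built on GRCh38.p14, with the position of the identical sequence in GRCh37. Capitals mark matches, on either strand, to the AP-1 motif TGANTCA, the hypoxia-response cores ACGTG and GCGTG, and the TATA box TATAAA, motifs that overlap nowhere in these windows. The windows lie at chr11:102401479-102401728, minus strand, for MMP7, at chrX:47441585-47441834, plus strand, for TIMP1, at chr3:12200413-12200662, minus strand, for TIMP4, and at chr20:33814243-33814492, plus strand, for MMP24.
MMP7: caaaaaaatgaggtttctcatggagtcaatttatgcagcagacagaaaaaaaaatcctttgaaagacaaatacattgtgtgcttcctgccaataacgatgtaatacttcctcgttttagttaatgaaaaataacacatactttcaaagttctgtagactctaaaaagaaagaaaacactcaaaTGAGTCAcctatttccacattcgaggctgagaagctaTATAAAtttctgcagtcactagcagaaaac
TIMP1: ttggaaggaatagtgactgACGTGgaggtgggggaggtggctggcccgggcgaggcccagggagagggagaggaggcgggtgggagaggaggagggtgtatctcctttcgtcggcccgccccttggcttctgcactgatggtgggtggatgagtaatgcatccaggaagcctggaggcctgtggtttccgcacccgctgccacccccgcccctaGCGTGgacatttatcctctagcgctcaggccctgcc
TIMP4: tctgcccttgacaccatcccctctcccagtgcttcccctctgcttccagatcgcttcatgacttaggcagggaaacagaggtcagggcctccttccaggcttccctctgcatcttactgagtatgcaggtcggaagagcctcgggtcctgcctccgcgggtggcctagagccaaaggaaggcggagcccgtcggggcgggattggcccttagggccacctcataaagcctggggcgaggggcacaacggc
MMP24: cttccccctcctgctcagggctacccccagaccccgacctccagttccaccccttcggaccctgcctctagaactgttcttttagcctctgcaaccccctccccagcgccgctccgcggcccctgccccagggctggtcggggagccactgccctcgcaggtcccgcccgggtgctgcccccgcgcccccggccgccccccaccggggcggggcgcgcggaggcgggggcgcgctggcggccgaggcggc

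The MMP7 window held an AP-1 motif at bases -67 to -61 and a TATA box at bases -30 to -25 from the start, and had 33.6% GC. AP-1 motifs of this form were in 6.57% of the 35116 promoter windows of the table, and TATAAA was in 10.7%. The TIMP1 window, with 64.8% GC, held ACGTG at bases -231 to -227 and GCGTG at bases -36 to -32, cores that were present in 18.5% and 32.2% of windows. None of the 4 motifs was found in the windows of TIMP4 and MMP24, of 62.8% and 77.6% GC, so no motif of this search was common to the printed windows. Among the 26 members with an entry, 2 held the AP-1 motif (MMP7 and ADAMTS12), 6 held ACGTG, 9 held GCGTG and 3 held TATAAA. A match is a description of the letters in the window, and nothing on the binding of a factor follows from its presence or absence.

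TIMP1 (GRCh37 chrX:47441807-47446188, plus strand) inhibits most secreted MMPs. In Huh7 cells its level was 9.78 and 2.44 CPM in parental, 9.23 and 15.6 CPM in DMSO, 73.6 and 126 CPM in Huh7-IR and 119 and 112 CPM in Huh7-CR libraries. In Hep3B cells it was 4.43 and 3.05 CPM in parental, 5.27 and 4.28 CPM in DMSO, 26.1 and 18.0 CPM in Hep3B-IR and 38.0 and 35.1 CPM in Hep3B-CR libraries. Every resistant library of a line lay above all parental and DMSO libraries of that line. The mean CPM was 16.3-fold higher in Huh7-IR (log2 fold change 4.0 ± 0.44, adjusted p = 1.35e-05) and 18.9-fold higher in Huh7-CR cells (log2 fold change 4.25 ± 0.44, adjusted p = 1.5e-05). The rise was 5.90-fold in Hep3B-IR (log2 fold change 2.27 ± 0.44, adjusted p = 0.00195) and 9.76-fold in Hep3B-CR cells (log2 fold change 3.0 ± 0.44, adjusted p = 0.000271). The difference between the lines in the mean change of both regimens was 1.49 ± 0.54 on the log2 scale and missed the threshold (adjusted p = 0.0526). TIMP1 lies inside the gene SYN1 on the opposite strand, with no exon base in common, and SYN1 had at most 0.043 CPM.

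TIMP2 (GRCh37 chr17:76849059-76921469, minus strand), which inhibits MMPs and also forms a complex with MMP14 through which pro-MMP2 is activated, was among the most abundant members in resistant cells. Its level was 30.7 and 12.3 CPM in Huh7 parental and 19.4 and 48.5 CPM in Huh7 DMSO libraries. It reached 652 and 601 CPM in Huh7-IR and 369.6 and 365 CPM in Huh7-CR libraries, all above the 4 libraries of cells without Sorafenib. The mean was 29.2-fold higher in Huh7-IR (log2 fold change 4.93 ± 0.40, adjusted p = 1.26e-06) and 17.1-fold higher in Huh7-CR cells (log2 fold change 4.17 ± 0.40, adjusted p = 8.34e-06). Parental Hep3B cells started from a higher level, with 103 and 93.5 CPM, and DMSO libraries were in the same range with 94.7 and 108 CPM. Hep3B-IR libraries had 307 and 203 CPM (log2 fold change 1.33 ± 0.40, adjusted p = 0.0226) and Hep3B-CR libraries 362 and 331 CPM (log2 fold change 1.81 ± 0.40, adjusted p = 0.00375), again without overlap with the parental libraries. TIMP2 rose more in Huh7 than in Hep3B cells, by 2.98 ± 0.49 on the log2 scale (adjusted p = 0.000747). For TIMP2 in Hep3B-IR cells, the call was lost without Hep3B parental replicate 1, Hep3B parental replicate 2 or Hep3B-IR replicate 1 (log2 1.04 to 1.41, adjusted p = 0.0717 to 0.17). The TIMP2 call was also lost without the filter on low values (log2 1.33, adjusted p = 0.0553).

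TIMP4 (GRCh37 chr3:12194568-12200412, minus strand), an inhibitor first described in the heart, rose in all resistant lines and more in Hep3B cells, with a difference between the lines of -1.28 ± 0.41 on the log2 scale (adjusted p = 0.0318). For TIMP4 in the comparison of the lines, the call was lost without Huh7 parental replicate 1, Huh7-CR replicate 2, Hep3B parental replicate 1, Hep3B parental replicate 2, Hep3B-IR replicate 1 or Hep3B-CR replicate 1 (log2 -1.35 to -0.79, adjusted p = 0.062 to 0.179). That call was also lost with a pseudocount of 4 CPM or without the filter on low values. TIMP4 was at 1.09 and 0.9 CPM in Hep3B parental, 0.755 and 0.987 CPM in DMSO, 21.6 and 15 CPM in Hep3B-IR and 39.3 and 33.2 CPM in Hep3B-CR libraries. The rise was 18.4-fold in Hep3B-IR (log2 fold change 3.25 ± 0.34, adjusted p = 2.33e-05) and 36.4-fold in Hep3B-CR cells (log2 fold change 4.22 ± 0.34, adjusted p = 3.32e-06). In Huh7 cells the values were 7.28 and 3.21 CPM in parental, 6.77 and 10.0 CPM in DMSO, 30.0 and 18.9 CPM in Huh7-IR and 49.6 and 34.2 CPM in Huh7-CR libraries. Resistant and other libraries did not overlap in either line, with a log2 fold change of 2.07 ± 0.34, adjusted p = 0.000239 in Huh7-IR and of 2.84 ± 0.34, adjusted p = 4.01e-05 in Huh7-CR cells. TIMP4 lies inside SYN2 on the opposite strand, 14.2% of its exon bases are shared with SYN2, and SYN2 had 0.040 to 1.71 CPM.

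TIMP3 (GRCh37 chr22:33197691-33259028, plus strand) binds the extracellular matrix and inhibits ADAM17 and ADAMTS enzymes in addition to MMPs. It was the TIMP whose direction depended on the line and the regimen. Huh7 libraries had 96.2 and 55.1 CPM in parental libraries, 55.5 and 48.8 CPM in DMSO and 160.0 and 132 CPM in Huh7-IR (log2 fold change 0.99 ± 0.25, adjusted p = 0.00478). TIMP3 in Huh7-CR libraries was at 228 and 212 CPM (log2 fold change 1.58 ± 0.25, adjusted p = 0.000349). Hep3B cells had little of it in parental libraries, with 3.45 and 5.49 CPM, and more in DMSO libraries, with 17.7 and 20.3 CPM (log2 fold change 1.89 ± 0.25, adjusted p = 0.00292). Hep3B-IR libraries had only 0.0937 and 0.0711 CPM, from 7 and 5 reads (log2 fold change -2.31 ± 0.25, adjusted p = 3.41e-05). Hep3B-CR libraries had 12.5 and 9.98 CPM, above the parental but below the DMSO libraries (log2 fold change 1.18 ± 0.25, adjusted p = 0.00285). Against the DMSO libraries the change in Hep3B-CR cells was therefore a decrease, with a log2 fold change of -0.71 and an adjusted p of 0.0385. For TIMP3 in Huh7-IR cells, the call was lost without Huh7 parental replicate 2 (log2 0.59, adjusted p = 0.0718). The TIMP3 call was also lost with the compared groups fitted alone (log2 0.99, adjusted p = 0.0592).

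**Figure D2:**
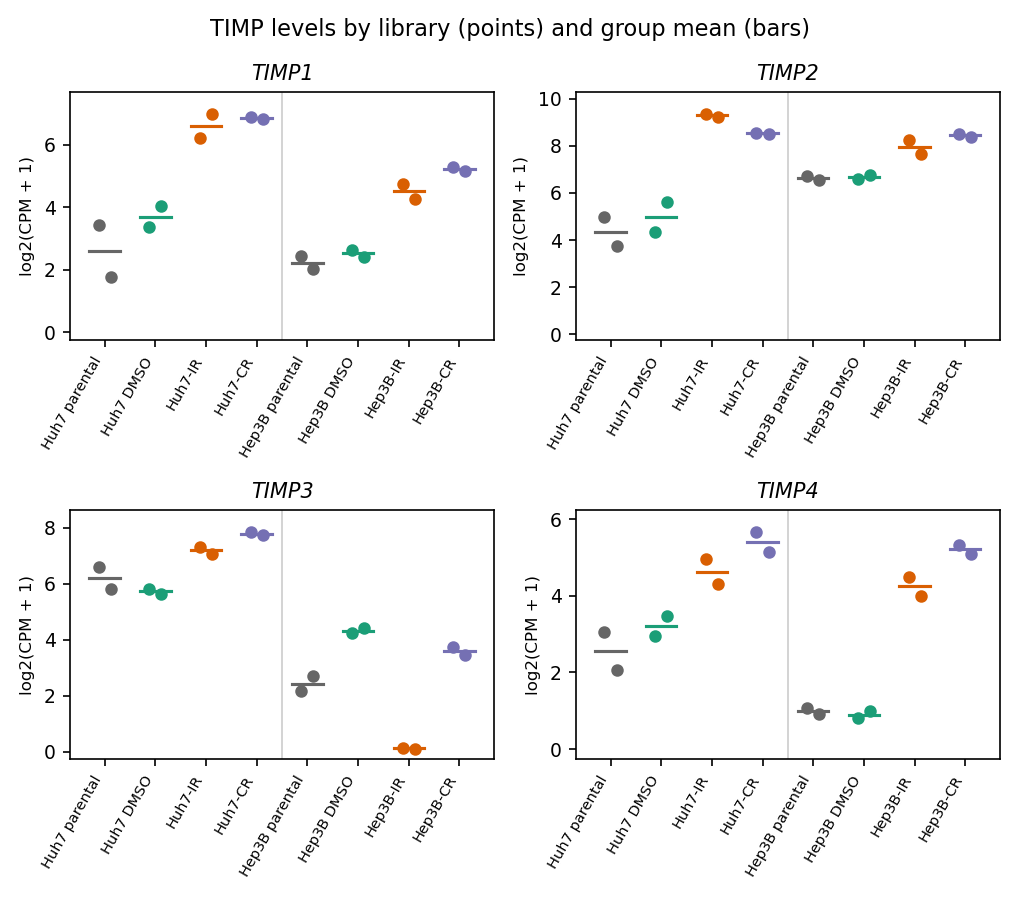
Levels of TIMP1, TIMP2, TIMP3 and TIMP4 as log2(CPM + 1) on the vertical axis in the 8 groups, each point 1 library and each bar the mean of 2. TIMP1, TIMP2 and TIMP4 of IR and CR cells lie above the parental and DMSO points of their line, while TIMP3 drops to 0.094 and 0.071 CPM in Hep3B-IR cells.

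MMP7 (GRCh37 chr11:102391239-102401481, minus strand), or matrilysin, is a small secreted MMP of epithelial cells that cuts matrix proteins and cell surface ligands. It was close to absent from parental cells, with 1 and 2 reads in the Huh7 and 5 and 2 reads in the Hep3B libraries. Huh7-IR libraries had 4.87 and 18.8 CPM (log2 fold change 3.4 ± 0.39, adjusted p = 1.89e-05) and Huh7-CR libraries 20.6 and 20.5 CPM (log2 fold change 4.40 ± 0.39, adjusted p = 4.66e-06). Over the reads of both libraries, the ratio to parental cells was 522 in Huh7-IR (95% exact counting interval 178 to 2537) and 982 in Huh7-CR cells (336 to 4764). Such intervals, here and below, cover counting error only and leave out the spread between libraries. Hep3B-IR libraries had 2.56 and 2.93 CPM (log2 fold change 1.83 ± 0.39, adjusted p = 0.00361) and Hep3B-CR libraries 6.02 and 4.61 CPM (log2 fold change 2.58 ± 0.39, adjusted p = 0.000332). All 8 resistant libraries exceeded the highest of the other 8, a Hep3B DMSO library with 0.370 CPM. Its promoter was the only one of the 4 printed above with a match to TGANTCA and to TATAAA. Other forms of AP-1 site were not searched for. For MMP7 in Hep3B-IR cells, the call was lost with a pseudocount of 4 CPM (log2 0.74, adjusted p = 0.0779).

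MMP24 (GRCh37 chr20:33814493-33864801, plus strand), the membrane-anchored MT5-MMP known mainly from the nervous system, rose in all 4 resistant lines. In Huh7 cells its level was 28.5 and 20.8 CPM in parental and 117 and 244 CPM in Huh7-IR (log2 fold change 2.74 ± 0.39, adjusted p = 9.53e-05). MMP24 in Huh7-CR libraries was at 86.2 and 149 CPM (log2 fold change 2.17 ± 0.39, adjusted p = 0.000902). In Hep3B cells it was 3.16 and 2.21 CPM in parental and 94.8 and 58.6 CPM in Hep3B-IR (log2 fold change 4.37 ± 0.39, adjusted p = 8.21e-06). MMP24 in Hep3B-CR libraries was at 35.4 and 45.7 CPM (log2 fold change 3.5 ± 0.39, adjusted p = 4.15e-05). The rise of the mean CPM was 7.32-fold and 4.77-fold in Huh7-IR and Huh7-CR, and 28.6-fold and 15.1-fold in Hep3B-IR and Hep3B-CR cells. MMP24 was lower in DMSO than in parental Huh7 cells, with 7.38 and 3.71 CPM (log2 fold change -2.01 ± 0.39, adjusted p = 0.017). It had 1.21 and 0.973 CPM in Hep3B DMSO libraries, without a call (log2 fold change -0.81 ± 0.39, adjusted p = 0.351). Of the exon bases of MMP24, 18.4% are shared with MMP24OS on the opposite strand, which had 11.3 to 27.2 CPM over the 16 libraries, and the strand setting of the counting is not given in the sources used here. For MMP24 in Huh7 DMSO cells, the call was lost without Huh7 parental replicate 1, Huh7 parental replicate 2 or Huh7 DMSO replicate 2 (log2 -2.23 to -1.60, adjusted p = 0.0552 to 0.158). The MMP24 call was also lost with the compared groups fitted alone (log2 -2.01, adjusted p = 0.393).

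MMP14 (MT1-MMP), the collagenase that activates pro-MMP2, had the highest mean level per transcript length among the MMPs in every group. In Huh7-IR cells its 42.9 CPM per kb were within the library spread of the 41.2 CPM per kb of MMP24. It fell in Huh7 cells, from 297 and 222 CPM in parental to 112 and 205 CPM in Huh7-IR (log2 fold change -0.76 ± 0.28, adjusted p = 0.0375). MMP14 in Huh7-CR libraries was at 92.1 and 139.9 CPM (log2 fold change -1.17 ± 0.28, adjusted p = 0.00599). Hep3B cells showed a rise from 127 and 89.9 CPM to 236 and 174 CPM in Hep3B-IR libraries (log2 fold change 0.91 ± 0.28, adjusted p = 0.0275). In Hep3B-CR libraries it had 159 and 165 CPM and no call (log2 fold change 0.59 ± 0.28, adjusted p = 0.118). The difference between the lines in the resistant change was -1.72 ± 0.35 on the log2 scale (adjusted p = 0.00297). For MMP14 in Huh7-IR cells, the call was lost without Huh7 parental replicate 1 or Huh7-IR replicate 1 (log2 -0.55 to -0.32, adjusted p = 0.214 to 0.365). The MMP14 call was also lost with quantile normalization, without the filter on low values, with the compared groups fitted alone, against the DMSO libraries or without the DMSO groups in the fit (log2 -0.76 to -0.48, adjusted p = 0.0522 to 0.171). For MMP14 in Huh7-CR cells, the call was lost without Huh7 parental replicate 1 or Huh7-CR replicate 1 (log2 -0.96 to -0.87, adjusted p = 0.0576 to 0.0752). For MMP14 in Hep3B-IR cells, the call was lost without Hep3B parental replicate 2 or Hep3B-IR replicate 1 (log2 0.66 to 0.69, adjusted p = 0.198 to 0.221). The MMP14 call was also lost without the filter on low values (log2 0.91, adjusted p = 0.0608). MMP16 (MT3-MMP) was lower in both resistant Huh7 lines, with 33.3 and 31.0 CPM in parental and 12.6 and 14.4 CPM in Huh7-IR (log2 fold change -1.20 ± 0.28, adjusted p = 0.00311). MMP16 in Huh7-CR libraries was at 16.5 and 13.7 CPM (log2 fold change -1.05 ± 0.28, adjusted p = 0.0105). It had no call in Hep3B cells (-0.46 and 0.22 on the log2 scale). For MMP16 in Huh7-CR cells, the call was lost without Huh7 parental replicate 1 or Huh7-CR replicate 2 (log2 -1.0 to -0.92, adjusted p = 0.0572 to 0.0711).

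MMP15 (MT2-MMP) had no call in any resistant line, with log2 fold changes of 0.46, -0.66, 0.60 and 0.91. MMP11 (stromelysin-3), which furin activates inside the cell, had 3.30 and 2.00 CPM in Huh7 parental and 5.26 and 8.86 CPM in Huh7-IR libraries (log2 fold change 1.13 ± 0.38, adjusted p = 0.0228). The DMSO libraries of Huh7 had more, 8.92 and 21.7 CPM, and against them the log2 fold change of MMP11 in Huh7-IR cells was -0.93 (adjusted p = 0.054). For MMP11 in Huh7-IR cells, the call was lost without Huh7 parental replicate 2 or Huh7-IR replicate 2 (log2 0.80 to 0.87, adjusted p = 0.153 to 0.155). The MMP11 call was also lost with quantile normalization, without the filter on low values, with the compared groups fitted alone, with the GC correction or with the block and GC correction together (log2 0.54 to 1.13, adjusted p = 0.0521 to 0.159). MMP19 was low everywhere and fell in Hep3B cells, from 2.06 and 1.25 CPM to 0.0803 and 0.199 CPM in Hep3B-IR (log2 fold change -1.21 ± 0.22, adjusted p = 0.00148). MMP19 in Hep3B-CR libraries was at 0.477 and 0.19 CPM (log2 fold change -0.99 ± 0.22, adjusted p = 0.00437). Both calls were lost with a pseudocount of 4 CPM (log2 -0.45 and -0.38). MMP19 shares 17.6% of its exon bases with TMEM198B on the opposite strand, which had 1.43 to 5.71 CPM over the 16 libraries. Since the strand setting of the counting is not given, reads of TMEM198B may be counted in MMP19. MMP17 had at most 3.75 CPM and no call.

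**Figure D3:**
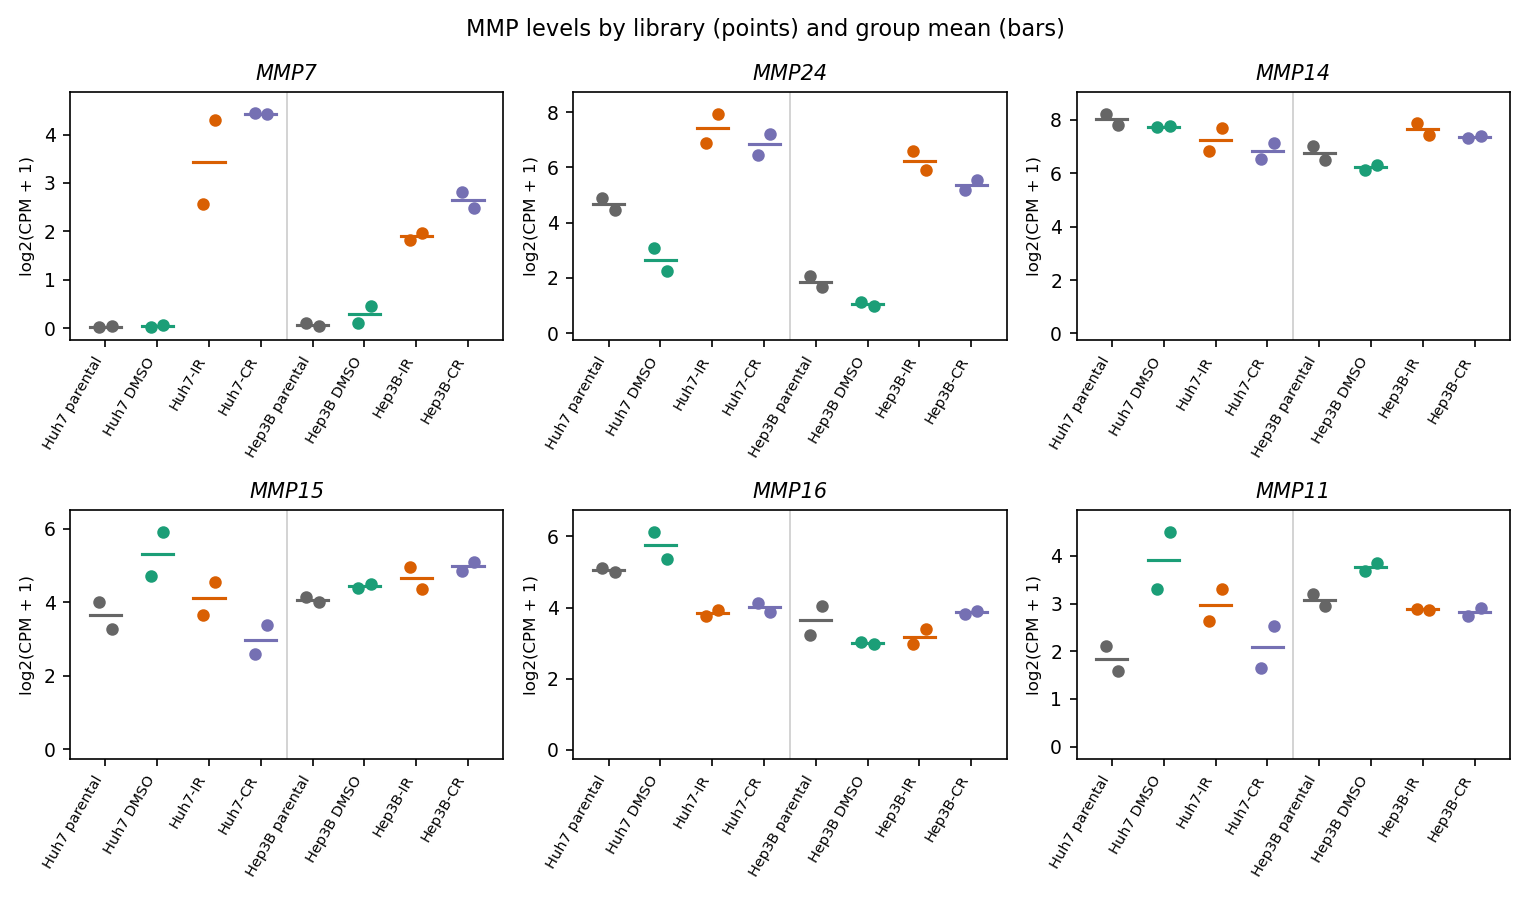
Levels of 6 MMP genes as log2(CPM + 1) on the vertical axis in the 8 groups, each point 1 library and each bar the mean of 2. MMP7 and MMP24 rise in all resistant lines, whereas MMP14 falls in resistant Huh7 cells and rises in Hep3B-IR cells.

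The balance of inhibitors and MMPs was summed per kilobase of transcript, so that genes of different length could be added. The 4 TIMPs summed to 48.1 and 21.2 CPM per kb in Huh7 parental libraries and to 334 and 373 CPM per kb in Huh7-IR libraries. The 23 MMPs summed to 95.6 and 70.7 CPM per kb in the former and to 68.8 and 140 CPM per kb in the latter. The TIMP to MMP ratio was 0.503 and 0.30 in Huh7 parental, 0.469 and 0.593 in DMSO, 4.86 and 2.67 in Huh7-IR, and 5.07 and 3.31 in Huh7-CR libraries. Resistant Huh7 libraries thus lay above all other Huh7 libraries. In Hep3B cells the ratio was 0.801 and 0.940 in parental, 1.21 and 1.16 in DMSO, 2.72 and 2.30 in Hep3B-CR, and 1.37 and 1.28 in Hep3B-IR libraries. The Hep3B-IR values lay just above those of DMSO cells. With 2 libraries a group, an exact permutation test of 2 against 2 cannot give a p under 0.333, and no test is given for these ratios. Messenger RNA ratios say nothing on the amount of active enzyme.

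Of all members, ADAM9 had the highest level per transcript length in every group but Huh7-IR, where TIMP2 with 172 and TIMP1 with 130 CPM per kb were above its 126 CPM per kb. ADAM9, a widely expressed sheddase, took 52.6% of the summed level per kb of all members in Huh7 parental and 51.7% in Hep3B parental cells. It had 1065 and 1031 CPM in Huh7 parental and 378 and 658 CPM in Huh7-IR (log2 fold change -1.07 ± 0.23, adjusted p = 0.00178). ADAM9 in Huh7-CR libraries was at 1034 and 1081 CPM (log2 fold change 0.01 ± 0.23, adjusted p = 0.979). In Hep3B cells it rose from 793 and 615 CPM to 1394 and 1136 CPM in Hep3B-IR libraries (log2 fold change 0.85 ± 0.23, adjusted p = 0.0143). In Hep3B-CR libraries it had 952 and 889.6 CPM (log2 fold change 0.40 ± 0.23, adjusted p = 0.194). DMSO libraries lay below the parental libraries of their line as well, without a call in Huh7 (-0.26 ± 0.23, adjusted p = 0.508) or Hep3B cells (-0.91 ± 0.23, adjusted p = 0.071). The difference between the lines in the resistant change was -1.15 ± 0.28 on the log2 scale (adjusted p = 0.00871), a call lost without Hep3B parental replicate 2 (log2 -0.97, adjusted p = 0.053). For ADAM9 in Hep3B-IR cells, the call was lost without Hep3B parental replicate 2 or Hep3B-IR replicate 1 (log2 0.67 to 0.70, adjusted p = 0.116 to 0.132).

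ADAM10 and ADAM17 are the main sheddases of Notch receptors and cadherins, and of TNF and ligands of the EGF receptor. ADAM17 rose in Huh7-IR cells, from 45.3 and 45.0 to 88.6 and 78.2 CPM (log2 fold change 0.87 ± 0.11, adjusted p = 4.72e-05). It also rose in Hep3B-CR cells, from 65.1 and 65.0 to 113 and 108 CPM (log2 fold change 0.75 ± 0.11, adjusted p = 0.000311). In Huh7-CR (log2 fold change 0.37 ± 0.11, adjusted p = 0.0203) and Hep3B-IR cells (log2 fold change 0.45 ± 0.11, adjusted p = 0.00977) the difference passed the adjusted p but not the fold limit. All resistant libraries of a line lay above its parental and DMSO libraries. ADAM17 shares 10.3% of its exon bases with IAH1 on the opposite strand, which had 14.3 to 35.3 CPM. ADAM10 was called in Hep3B-CR cells alone, falling from 368 and 353 to 225 and 216 CPM (log2 fold change -0.71 ± 0.18, adjusted p = 0.00878). For ADAM10 in Hep3B-CR cells, the call was lost without Hep3B parental replicate 1 or Hep3B-CR replicate 2 (log2 -0.68 to -0.67, adjusted p = 0.05 to 0.0528). The ADAM10 call was also lost against the DMSO libraries (log2 -0.40, adjusted p = 0.0948). ADAM15, a sheddase with an integrin-binding motif, was lower in Hep3B-IR, with 30.6 and 27.0 CPM in parental and 20.2 and 17.1 CPM in Hep3B-IR libraries (log2 fold change -0.60 ± 0.17, adjusted p = 0.0184). It was higher in Hep3B-CR libraries with 52.9 and 46.6 CPM (log2 fold change 0.77 ± 0.17, adjusted p = 0.00415). For ADAM15 in Hep3B-IR cells, the call was lost without Hep3B parental replicate 1 or Hep3B-IR replicate 2 (log2 -0.52 to -0.49, adjusted p = 0.114 to 0.125). The ADAM15 call was also lost with a pseudocount of 4 CPM (log2 -0.54, adjusted p = 0.0235). For ADAM15 in Hep3B-CR cells, the call was lost with the GC correction or with the block and GC correction together (log2 0.40, adjusted p = 0.0338 to 0.0474).

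ADAM19 (GRCh37 chr5:156822542-157002783, minus strand), or meltrin beta, a sheddase of neuregulin, rose in both resistant Huh7 lines and fell in Hep3B-IR cells. Huh7 parental cells had 6 and 0 reads, that is 0.0873 and 0 CPM, and DMSO libraries 0.0138 and 0.172 CPM. Huh7-IR libraries had 16.9 and 9.63 CPM (log2 fold change 3.73 ± 0.31, adjusted p = 1.44e-06) and Huh7-CR libraries 53.1 and 39.3 CPM (log2 fold change 5.49 ± 0.31, adjusted p = 1.03e-07). In Hep3B cells it was expressed in parental libraries, at 25.9 and 19.0 CPM, and fell to 1.18 and 0.355 CPM in Hep3B-IR libraries (log2 fold change -3.75 ± 0.31, adjusted p = 4.09e-06). Hep3B-CR libraries had 18.5 and 12.1 CPM, below the parental range and not called (log2 fold change -0.54 ± 0.31, adjusted p = 0.188). The Hep3B DMSO libraries, with 13.3 and 13.3 CPM, lay within the range of the Hep3B-CR libraries. The lines differed in the resistant change by 6.75 ± 0.38 on the log2 scale (adjusted p = 2.74e-07).

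ADAM28, made in membrane-bound and secreted forms, cleaves an IGF binding protein and showed the reverse. It fell in Huh7 cells from 15.1 and 26.4 CPM to 0.398 and 2.02 CPM in Huh7-IR (log2 fold change -3.35 ± 0.38, adjusted p = 1.68e-05). ADAM28 in Huh7-CR libraries was at 4.27 and 6.35 CPM (log2 fold change -1.75 ± 0.38, adjusted p = 0.00301). Hep3B cells showed a rise from 0.444 and 0.999 CPM to 19.6 and 19.4 CPM in Hep3B-IR libraries (log2 fold change 3.59 ± 0.38, adjusted p = 2.95e-05). Hep3B-CR libraries had 1.76 and 2.99 CPM (log2 fold change 0.97 ± 0.38, adjusted p = 0.0623). Libraries of Hep3B-IR cells thus reached the range of Huh7 parental cells. The difference between the lines was -4.83 ± 0.47 on the log2 scale (adjusted p = 1.85e-05).

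ADAM22 and ADAM23 lack protease activity and serve as receptors of LGI proteins. ADAM22 fell in Huh7-IR, from 21.7 and 27.8 to 8.17 and 5.86 CPM (log2 fold change -1.69 ± 0.24, adjusted p = 0.000102). In Huh7-CR cells it fell to 5.67 and 5.35 CPM (log2 fold change -1.97 ± 0.24, adjusted p = 5.64e-05). No call was made in Hep3B cells, where ADAM22 stayed between 25.6 and 40.4 CPM. ADAM23 fell in Huh7-IR cells, from 8.27 and 14.6 to 1.59 and 2.94 CPM (log2 fold change -1.91 ± 0.25, adjusted p = 5.49e-05), and had 9.68 and 7.75 CPM in Huh7-CR libraries (log2 fold change -0.31 ± 0.25, adjusted p = 0.352). Hep3B libraries held at most 0.495 CPM of it. ADAM32 was higher in Huh7-CR cells, with 4.60 and 3.5 CPM in parental and 8.04 and 7.26 CPM in Huh7-CR libraries (log2 fold change 0.78 ± 0.26, adjusted p = 0.0278). For ADAM32 in Huh7-CR cells, the call was lost without Huh7 parental replicate 2, Huh7-CR replicate 1 or Huh7-CR replicate 2 (log2 0.63 to 0.85, adjusted p = 0.0709 to 0.171). The ADAM32 call was also lost with edgeR, with DESeq2, with quantile normalization, with a pseudocount of 4 CPM or without the filter on low values (log2 0.46 to 0.84, adjusted p = 0.0126 to 0.161). Of the ADAM genes outside the naming rule, ADAM8 was called higher in Huh7-IR and Hep3B-CR cells, calls that were not followed over the alternatives. It had 0.698 and 0.415 CPM in Huh7 parental, 0.469 and 0.819 CPM in Huh7 DMSO and 1.14 and 1.63 CPM in Huh7-IR libraries. Hep3B parental libraries had 4.15 and 3.80 CPM. The 7.83 and 6.47 CPM of Hep3B-CR libraries lay within the range of the Hep3B DMSO libraries, with 5.93 and 8.02 CPM. ADAM11 and ADAM21 had no call in resistant lines and at most 1.34 and 1.29 CPM.

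ADAMTS15 (GRCh37 chr11:130318540-130346540, plus strand), a secreted protease of versican and aggrecan, was close to absent outside resistant Huh7 cells. Parental Huh7 libraries held 3 and 0 reads and DMSO libraries 0 and 1. Huh7-IR libraries had 20.5 and 41.6 CPM (log2 fold change 4.89 ± 0.24, adjusted p = 3.59e-08) and Huh7-CR libraries 28.7 and 32.6 CPM (log2 fold change 4.95 ± 0.24, adjusted p = 4.57e-08). Over the reads of both libraries the ratio to parental cells was 1420 (95% exact counting interval 485 to 6887) in Huh7-IR and 1471 (503 to 7138) in Huh7-CR cells. It stayed near 0 in Hep3B cells, with 2 and 0 reads in Hep3B-IR and 30 and 8 reads in Hep3B-CR libraries, no more than 0.397 CPM. The lines differed by 4.76 ± 0.30 on the log2 scale (adjusted p = 6.19e-07).

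ADAMTS19 (GRCh37 chr5:128795974-129074376, plus strand), whose substrate is not well known, was the single member called lower in all 4 resistant lines, which is 2.56% of the members against 2.88% of all tested genes. Huh7 libraries had 5.66 and 9.08 CPM in parental and 5.71 and 4.14 CPM in DMSO cells, against 1 and 0 reads in Huh7-IR (log2 fold change -3.02 ± 0.29, adjusted p = 5.08e-06). Huh7-CR libraries held 4 and 7 reads (log2 fold change -2.93 ± 0.29, adjusted p = 1.16e-05). Over both libraries, parental cells held 796 times the Huh7-IR level (95% exact counting interval 143 to 31460). Hep3B libraries had 18.8 and 11.4 CPM in parental, 5.91 and 9.09 CPM in DMSO and 0.736 and 1.45 CPM in Hep3B-IR (log2 fold change -2.93 ± 0.29, adjusted p = 1.92e-05). ADAMTS19 in Hep3B-CR libraries was at 1.44 and 2.13 CPM (log2 fold change -2.50 ± 0.29, adjusted p = 5.58e-05). Resistant libraries lay below all parental and DMSO libraries of their line.

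ADAMTS1, a protease of versican, fell in Huh7 cells, from 197 and 203 CPM to 71.4 and 57.5 CPM in Huh7-IR (log2 fold change -1.63 ± 0.28, adjusted p = 0.00035). ADAMTS1 in Huh7-CR libraries was at 69.6 and 87.2 CPM (log2 fold change -1.35 ± 0.28, adjusted p = 0.00216). No call was made in Hep3B cells, with log2 fold changes of -0.15 and 0.27. ADAMTS5, the main aggrecanase of cartilage, rose in Huh7 cells from 1.64 and 3.01 CPM to 10.5 and 9.59 CPM in Huh7-IR (log2 fold change 1.76 ± 0.22, adjusted p = 3.29e-05). ADAMTS5 in Huh7-CR libraries was at 5.77 and 8.90 CPM (log2 fold change 1.33 ± 0.22, adjusted p = 0.000476). In Hep3B cells ADAMTS5 stayed at or under 0.248 CPM. ADAMTS20 had the same pattern, with 1.64 and 1.33 CPM in Huh7 parental and 6.18 and 7.57 CPM in Huh7-IR (log2 fold change 1.66 ± 0.19, adjusted p = 1.68e-05). ADAMTS20 in Huh7-CR libraries was at 5.02 and 3.36 CPM (log2 fold change 1.05 ± 0.19, adjusted p = 0.000886). The Huh7 DMSO libraries also had more ADAMTS20, 3.23 and 4.70 CPM. For ADAMTS20 in Huh7-CR cells, the call was lost with a pseudocount of 4 CPM or against the DMSO libraries (log2 0.06 to 0.57, adjusted p = 0.00153 to 0.819).

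ADAMTS12, which cleaves cartilage oligomeric matrix protein, was the reverse case. It was high in Huh7 cells, with 80.0 and 76.2 CPM in parental libraries, and had no call in either resistant Huh7 line (-0.13 and 0.06 on the log2 scale). A rise was found in Hep3B cells, from 1.23 and 1.36 CPM to 19.99 and 5.30 CPM in Hep3B-IR (log2 fold change 2.33 ± 0.43, adjusted p = 0.00144). ADAMTS12 in Hep3B-CR libraries was at 19.1 and 14.9 CPM (log2 fold change 2.97 ± 0.43, adjusted p = 0.000248). ADAMTS6, related to the fibrillin-binding ADAMTS10, fell in Huh7-IR, from 18.0 and 15.7 to 4.72 and 7.87 CPM (log2 fold change -1.32 ± 0.34, adjusted p = 0.00584). It rose in Hep3B-IR cells, from 4.81 and 4.50 to 16 and 14.5 CPM (log2 fold change 1.52 ± 0.34, adjusted p = 0.00519). For ADAMTS6 in Huh7-IR cells, the call was lost without Huh7-IR replicate 1 (log2 -1.01, adjusted p = 0.0554). The ADAMTS6 call was also lost against the DMSO libraries (log2 -0.69, adjusted p = 0.109). ADAMTS3, a procollagen protease that also activates VEGF-C, fell in Huh7-IR cells, from 11.5 and 12.8 to 2.87 and 3.22 CPM (log2 fold change -1.70 ± 0.26, adjusted p = 0.000157), and had no other call among resistant lines.

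ADAMTS9, a versican protease of the secretory pathway, was higher in Huh7-CR cells, with 15.9 and 9.09 CPM in parental and 22.6 and 30.0 CPM in Huh7-CR libraries (log2 fold change 1.05 ± 0.30, adjusted p = 0.0135). For ADAMTS9 in Huh7-CR cells, the call was lost without Huh7 parental replicate 2 or Huh7-CR replicate 2 (log2 0.68 to 0.85, adjusted p = 0.102 to 0.148). The ADAMTS9 call was also lost against the DMSO libraries (log2 0.68, adjusted p = 0.0836). ADAMTS16 had 4.28 and 3.45 CPM in Hep3B parental and 9.0 and 5.31 CPM in Hep3B-CR libraries (log2 fold change 0.71 ± 0.26, adjusted p = 0.0465), and no more than 0.345 CPM in Huh7 cells. For ADAMTS16 in Hep3B-CR cells, the call was lost without Hep3B parental replicate 1, Hep3B parental replicate 2 or Hep3B-CR replicate 1 (log2 0.38 to 0.84, adjusted p = 0.0778 to 0.351). The ADAMTS16 call was also lost with edgeR, with DESeq2, with TMM factors, with quantile normalization, with a pseudocount of 0.25 CPM, with a pseudocount of 4 CPM, without the filter on low values, with the compared groups fitted alone, with the GC correction or with the block and GC correction together (log2 0.41 to 0.81, adjusted p = 0.0301 to 0.478). ADAMTSL2, a matrix protein without protease domain that binds fibrillin, was nearly restricted to Hep3B cells in these libraries, with 1 read in all 8 Huh7 libraries together. It rose from 0.915 and 0.76 CPM in Hep3B parental to 3.59 and 3.85 CPM in Hep3B-IR (log2 fold change 1.36 ± 0.15, adjusted p = 4.66e-05). ADAMTSL2 in Hep3B-CR libraries was at 7.19 and 10.1 CPM (log2 fold change 2.38 ± 0.15, adjusted p = 7.52e-07). ADAMTSL5 was called higher in Huh7-IR, Hep3B-IR and Hep3B-CR cells by log2 fold changes of 0.59, 0.65 and 0.73, and ADAMTSL4 was called lower in Hep3B-IR cells, with a log2 fold change of -1.48 and 28.2% of its exon bases shared with the gene AL356356.1. ADAMTS10 and ADAMTS13, the protease of von Willebrand factor, had no call in resistant lines and at most 2.08 and 3.17 CPM.

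**Figure D4:**
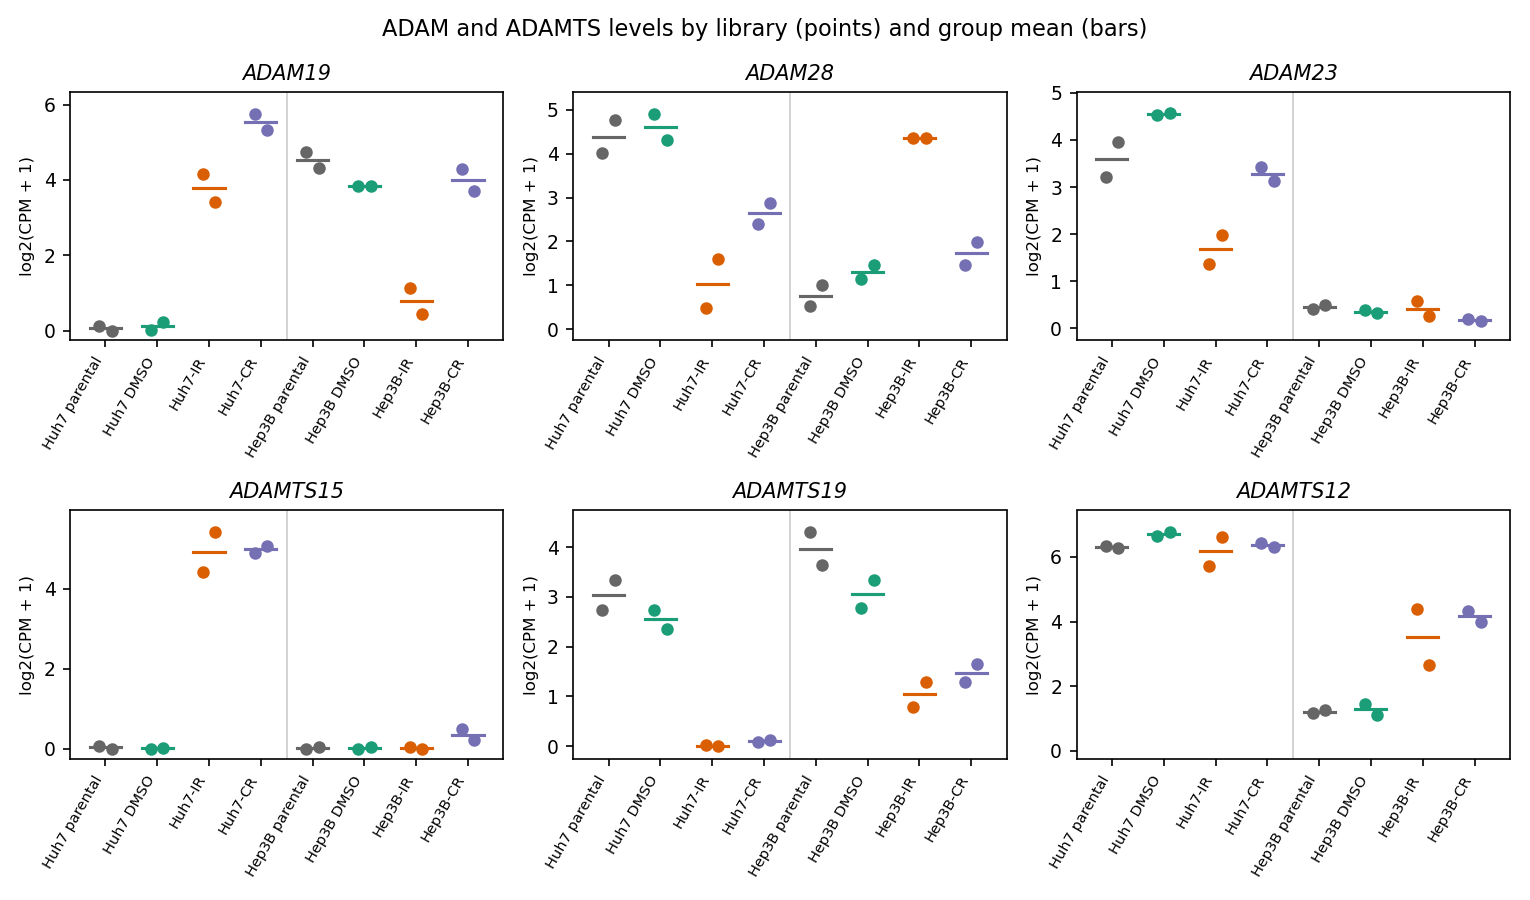
Levels of 6 ADAM and ADAMTS genes as log2(CPM + 1) on the vertical axis in the 8 groups, each point 1 library and each bar the mean of 2. ADAM19 rises in both resistant Huh7 lines and drops in Hep3B-IR cells, and ADAM28 shows the reverse. ADAMTS15 is near 0 outside Huh7-IR and Huh7-CR cells, and ADAMTS19 is lower in all 4 resistant lines.

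**Figure D5:**
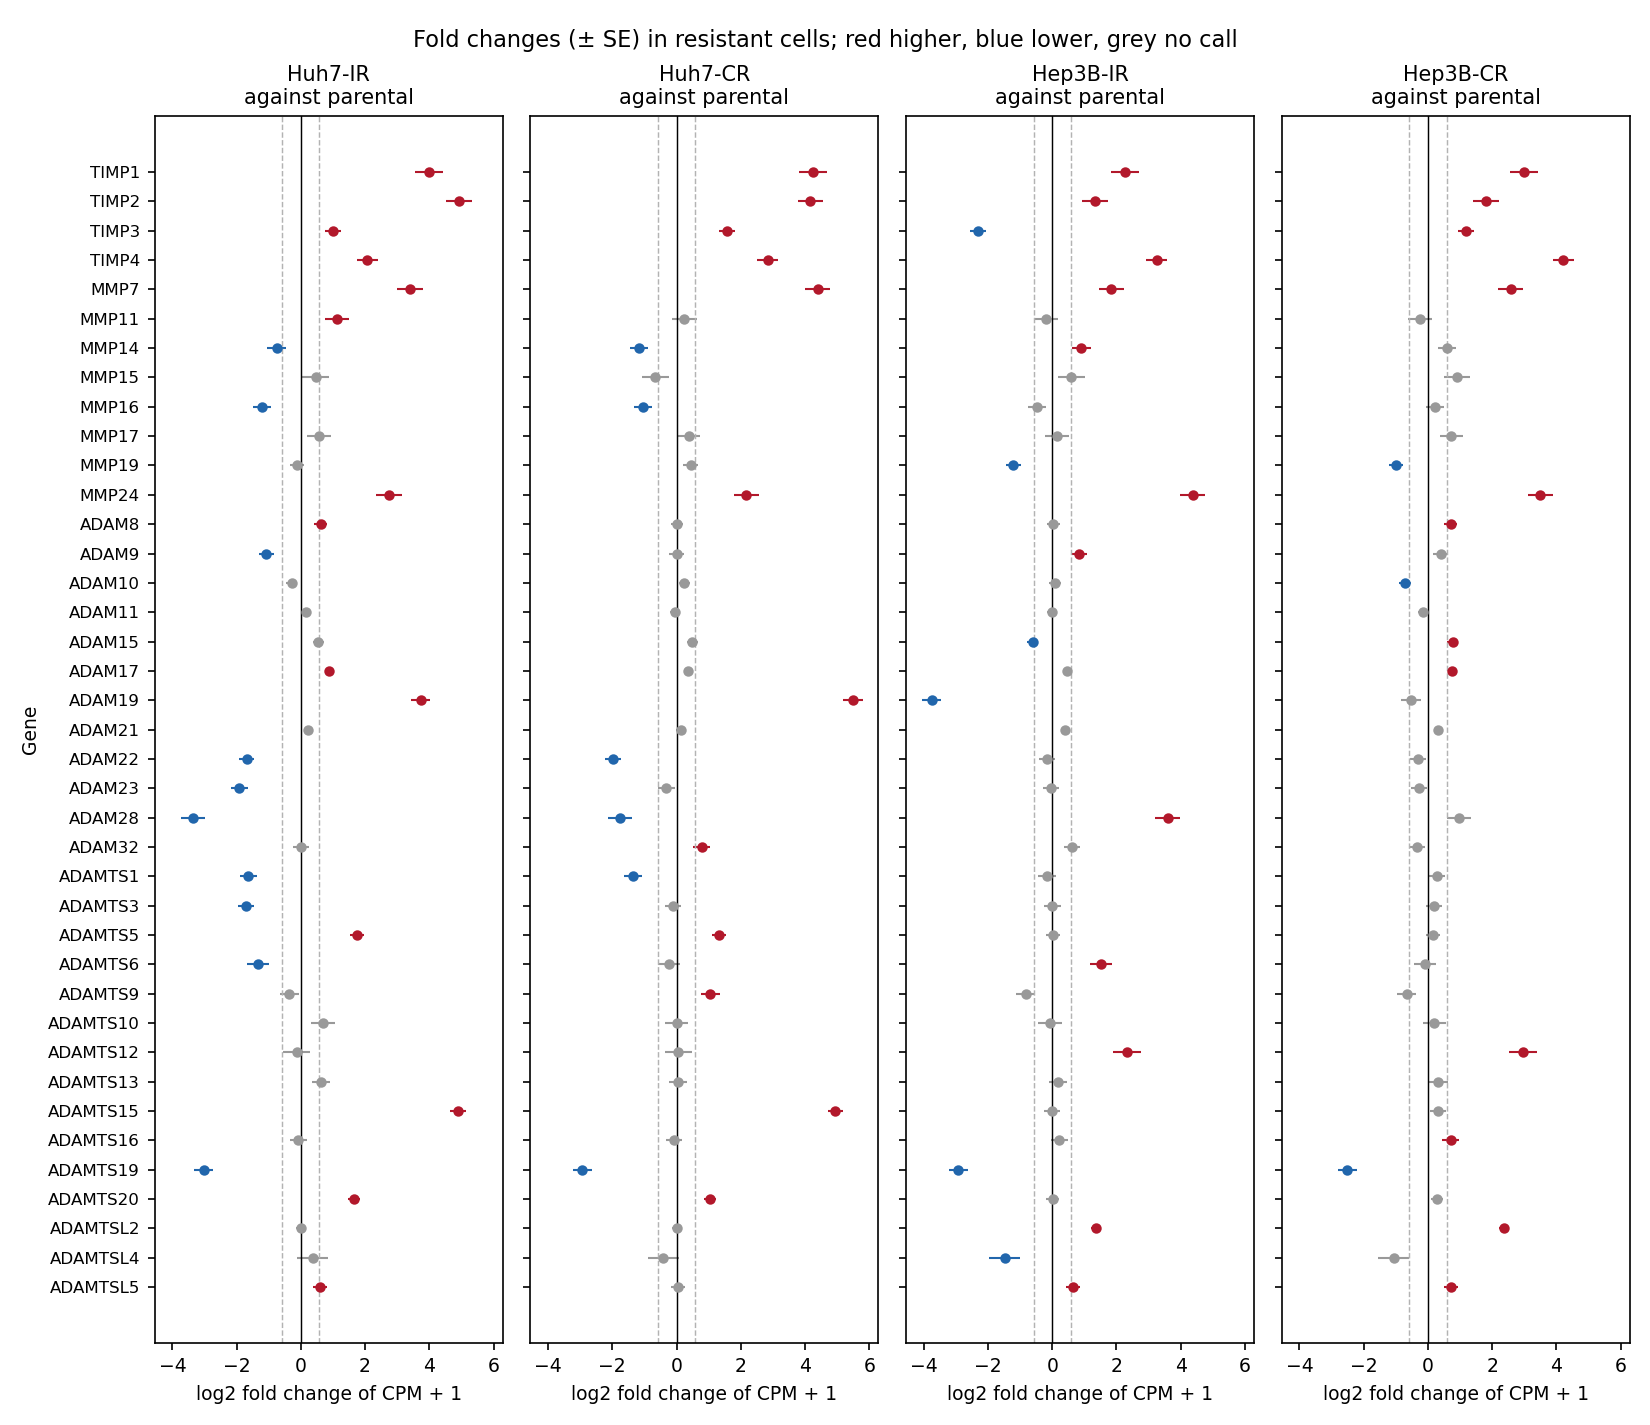
Log2 fold changes of CPM + 1 (points, bars are the standard error) of the 39 members in the 4 resistant lines against parental cells, with dashed lines at the fold limit of 0.58. TIMP1, TIMP2, TIMP4, MMP7 and MMP24 are red (called higher) in all 4 columns and ADAMTS19 is blue (called lower) in all 4.

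The regimens were compared directly, IR against CR. In Huh7 cells, 1 member was called higher and 7 lower in IR cells, against 8.23% and 5.43% of all genes. The lower ones were ADAM9 (-1.08 on the log2 scale), ADAM19 (-1.76), ADAM23 (-1.60), ADAM28 (-1.60), ADAMTS3 (-1.59), ADAMTS6 (-1.09) and ADAMTS9 (-1.41), with adjusted p values of 0.00254 to 0.0495. The higher one was ADAMTS20 (0.61 ± 0.19, adjusted p = 0.0454), a call that was lost in 13 of its alternatives, with an adjusted p of 0.0256 to 0.332 in these. With TMM factors all 8 calls were lower ones. No TIMP and no MMP was called between the Huh7 regimens. For ADAM9 in Huh7-IR against Huh7-CR cells, the call was lost without Huh7-IR replicate 1, Huh7-CR replicate 1 or Huh7-CR replicate 2 (log2 -1.11 to -0.68, adjusted p = 0.0511 to 0.0773). For ADAM28 in Huh7-IR against Huh7-CR cells, the call was lost without Huh7-IR replicate 1 or Huh7-CR replicate 2 (log2 -1.36 to -1.04, adjusted p = 0.0976 to 0.132). For ADAMTS6 in Huh7-IR against Huh7-CR cells, the call was lost without Huh7-IR replicate 1, Huh7-CR replicate 1 or Huh7-CR replicate 2 (log2 -1.36 to -0.78, adjusted p = 0.1 to 0.247). For ADAMTS9 in Huh7-IR against Huh7-CR cells, the call was lost without Huh7-IR replicate 1 or Huh7-CR replicate 2 (log2 -1.21 to -1.19, adjusted p = 0.0527 to 0.096). The ADAMTS6 call was lost in 11 of its 17 alternatives in all, with adjusted p = 0.0532 by edgeR and 0.0552 with the replicate block among them. With the 2 Huh7 groups fitted alone, none of the 8 calls held. Without Huh7-IR replicate 1 the count fell from 8 to 5, and without Huh7-CR replicate 2 to 3. In Hep3B cells, 4 members were called higher and 5 lower in IR cells, against 5.33% and 6.41% of all genes. ADAM28 (2.63 ± 0.38, adjusted p = 0.00099), ADAMTS6 (1.61 ± 0.34, adjusted p = 0.01), ADAM32 (0.96 ± 0.26, adjusted p = 0.0294) and ADAM10 (0.78 ± 0.18, adjusted p = 0.0147) were higher. TIMP3 (-3.49 ± 0.25, adjusted p = 4.75e-06), ADAM19 (-3.22 ± 0.31, adjusted p = 5.5e-05), ADAM15 (-1.37 ± 0.17, adjusted p = 0.000381), ADAMTSL2 (-1.01 ± 0.15, adjusted p = 0.00123) and ADAM8 (-0.67 ± 0.20, adjusted p = 0.0415) were lower. For ADAM10 in Hep3B-IR against Hep3B-CR cells, the call was lost without Hep3B-IR replicate 1, Hep3B-IR replicate 2, Hep3B-CR replicate 1 or Hep3B-CR replicate 2 (log2 0.75 to 0.82, adjusted p = 0.0545 to 0.101). For ADAM32 in Hep3B-IR against Hep3B-CR cells, the call was lost without Hep3B-IR replicate 1, Hep3B-IR replicate 2 or Hep3B-CR replicate 2 (log2 0.68 to 0.96, adjusted p = 0.109 to 0.231). For ADAMTS6 in Hep3B-IR against Hep3B-CR cells, the call was lost without Hep3B-IR replicate 1, Hep3B-IR replicate 2 or Hep3B-CR replicate 2 (log2 1.02 to 1.68, adjusted p = 0.0573 to 0.0977). For ADAMTSL2 in Hep3B-IR against Hep3B-CR cells, the call was lost with edgeR, with the compared groups fitted alone, with the GC correction or with the block and GC correction together (log2 -1.16 to -0.67, adjusted p = 0.0531 to 0.0976). The ADAM8 call, close to the threshold, was not followed over the alternatives. The count of 9 fell to 5 without Hep3B-IR replicate 2 or Hep3B-CR replicate 2.

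The DMSO cells were compared with parental cells, both being labelled Untreated. In Huh7 cells, 4 members were called higher and 2 lower, against 3.46% and 1.37% of all genes, and in Hep3B cells 1 was called higher and 0 lower, against 1.07% and 0.513%. At an unadjusted p under 0.05 with the same fold limit, 8 of the 39 members and 1210 of all 15019 genes passed in Hep3B cells by limma. With the adjusted p, edgeR and DESeq2 called 1 and 2 members. Besides MMP24, ADAM32 was lower in Huh7 DMSO cells (-0.99 ± 0.26, adjusted p = 0.0465). MMP11 (2.06 ± 0.38, adjusted p = 0.013), MMP15 (1.66 ± 0.41, adjusted p = 0.0412), ADAMTS20 (0.98 ± 0.19, adjusted p = 0.0157) and ADAM23 (0.96 ± 0.25, adjusted p = 0.0498) were higher. For MMP15 the libraries had 15.1 and 8.71 CPM in parental and 25.2 and 58.7 CPM in DMSO cells, so that DMSO replicate 2 stood apart. Without that replicate none of the 6 calls remained, and without DMSO replicate 1 the count was 12. Without parental replicate 1 the count was 2, and without parental replicate 2 it was 1. The replicates of Huh7 DMSO and of Huh7 parental cells differed along the GC content of the genes, with a Spearman correlation across genes of -0.517 and 0.536. With the GC correction the count was 7. The hepatocyte markers summed to more in DMSO than in parental libraries, to 22683 and 27762 CPM in Huh7 and to 30256 and 36145 CPM in Hep3B cells, and the part of this in the calls was not tested.

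Parental Huh7 and Hep3B cells differed in 26 of the 39 members, 13 higher and 13 lower in Huh7, against 18.9% and 23.7% of all genes. Higher in Huh7 were ADAMTS12 (5.11 ± 0.43, adjusted p = 1.15e-06), TIMP3 (3.78 ± 0.25, adjusted p = 1.42e-07), ADAM28 (3.63 ± 0.38, adjusted p = 7.71e-06), ADAM23 (3.13 ± 0.25, adjusted p = 8.43e-07), ADAMTS1 (2.79 ± 0.28, adjusted p = 4.98e-06) and MMP24 (2.79 ± 0.39, adjusted p = 8.65e-05). Higher in Hep3B were ADAM19 (-4.48 ± 0.31, adjusted p = 2.01e-07), TIMP2 (-2.27 ± 0.40, adjusted p = 0.000479), ADAMTS16 (-2.20 ± 0.26, adjusted p = 2.2e-05) and ADAMTS9 (-1.87 ± 0.30, adjusted p = 0.000227). For ADAMTS20 and ADAMTSL2, parental cells of 1 line had no read. With 3 reads over the group as the floor, ADAMTS20 was at least 71.6-fold higher in Huh7 and ADAMTSL2 at least 40.1-fold higher in Hep3B cells.

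The change in resistant cells, averaged over IR and CR, differed between the lines for 22 members, 9 with the higher value in Huh7 and 13 with the higher value in Hep3B, against 16.3% and 13.1% of all genes. ADAM19 and ADAM28 showed the widest differences, 6.75 and -4.83 on the log2 scale.

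Genes that act on these proteases or are cut by them were followed in lists written by hand. Calls of resistant lines in this and the next paragraph are against parental cells. They were not followed over the alternatives or against the DMSO libraries. Of 25 tested activators, chaperones and inhibitors, 17 were called higher and 4 lower in Huh7-IR, 4 and 1 in Hep3B-IR, 12 and 4 in Huh7-CR, and 4 and 2 in Hep3B-CR cells. The shares called higher were 68% and 48% in Huh7-IR and Huh7-CR, against 31.1% and 20.9% of all genes, and 16% in both resistant Hep3B lines, near or below the 15.7% and 20% of all genes. The tetraspanin TSPAN5, which escorts ADAM10 to the cell surface, was called higher in all 4 lines (2.55, 2.55, 2.83 and 3.32 on the log2 scale), and so was TSPAN14 of the same group. The membrane MMP inhibitor RECK was higher in Huh7-IR (0.61 ± 0.21, adjusted p = 0.0254) and Huh7-CR cells (1.08 ± 0.21, adjusted p = 0.00153) and had no call in Hep3B cells. The plasma protease trap A2M was lower in Huh7-IR (-6.31 ± 0.75, adjusted p = 2.3e-05), Huh7-CR (-5.01 ± 0.75, adjusted p = 0.000235) and Hep3B-CR cells (-3.83 ± 0.75, adjusted p = 0.00177). FURIN, which activates membrane-type MMPs and many ADAMs, was lower in Huh7-IR (-1.90 ± 0.34, adjusted p = 0.000515) and Huh7-CR cells (-1.47 ± 0.34, adjusted p = 0.00456). The receptor CD44, a docking site of MMP14, and the serine protease inhibitor TFPI2 were called higher in both resistant Huh7 lines and had no call in Hep3B cells, and the resistant change differed between the lines by 4.24 ± 0.81, adjusted p = 0.00213, for CD44 and by 2.71 ± 0.21, adjusted p = 3.59e-06, for TFPI2 (log2, Huh7 minus Hep3B). Further called members, higher in at least 1 resistant line, were SPOCK3, PAPLN, LRP1, RHBDF1, RHBDF2, FRMD8, BSG, PCSK7, TSPAN10, TSPAN15, TSPAN17 and TSPAN33. PCOLCE2 was lower in all 4 lines and PZP in both resistant Huh7 lines.

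Of 16 tested AP-1, ETS and RUNX factors, 6 were called higher and 2 lower in Huh7-IR, 8 and 1 in Hep3B-IR, 5 and 2 in Huh7-CR, and 8 and 2 in Hep3B-CR cells. The shares called higher were 37.5% and 31.2% in Huh7-IR and Huh7-CR, against 31.1% and 20.9% of all genes, and 50% in both resistant Hep3B lines, against 15.7% and 20%. ETS1 was higher in all 4 lines, by 2.7, 2.39, 4.15 and 5.62 on the log2 scale, as were the AP-1 subunit FOSL2 (3.61, 3.05, 1.72 and 2.45) and RUNX1 (1.80, 1.51, 2.04 and 4.01). ETV1 was lower in all 4 lines, and ETV4 was lower in resistant Huh7 and higher in resistant Hep3B cells. FOSL1, ATF3, RUNX2, FOS, JUN, JUNB and ETV5 were higher and ELF3 lower in at least 1 line. Of 19 tested substrates, 10 were called higher and 2 lower in Huh7-IR, 4 and 3 in Hep3B-IR, 6 and 3 in Huh7-CR, and 12 and 1 in Hep3B-CR cells. The shares called higher were 52.6% and 31.6% in Huh7-IR and Huh7-CR, against 31.1% and 20.9% of all genes. For the Hep3B lines they were 21.1% (IR) and 63.2% (CR), against 15.7% and 20%. With so few genes in each list, these shares are a description. The ligand HBEGF, released by ADAM sheddases, was higher in all 4 lines by 2.03, 1.68, 1.42 and 2.31, and N-cadherin (CDH2) by 1.20, 1.56, 1.27 and 1.13. The basement membrane protein NID1 was lower in all 4 lines. BTC, TGFA, EREG, TNFRSF1A, NOTCH2, IL6R, APP, AGRN, SDC1, VCAN and CDH1 were higher in at least 1 line, SDC4 and NOTCH1 lower, and L1CAM lower in Hep3B-IR and higher in the other lines. DMSO libraries reached the resistant level for some genes and not for others. IL6R had 18.4 and 12.5 CPM in Huh7 DMSO and 14.7 and 14.2 CPM in Huh7-IR libraries. EREG had 68.3 and 102 CPM in Hep3B DMSO and 451 and 461 CPM in Hep3B-IR libraries. Of the astacin proteases, a related family, 3 were tested, and BMP1 was called higher in Huh7-IR, Huh7-CR and Hep3B-CR cells (3.17, 2.19 and 1.47). TLL1 was lower in resistant Huh7 and higher in resistant Hep3B cells, and MEP1A was lower in resistant Hep3B cells.

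The 32 members that were not described had at most 1.34 CPM in any library. MMP10 reached 1.34 CPM in 1 Huh7-CR library and ADAM18 reached 1.24 CPM in 1 Huh7 DMSO library, and the other 30 stayed under 1 CPM throughout. They include the gelatinases MMP2 and MMP9, with at most 0.0995 and 0.019 CPM, the interstitial collagenases MMP1 and MMP13, with at most 0.247 and 0.149 CPM, and the stromelysin MMP3 with at most 0.0464 CPM. MMP27 had 0 reads in all 16 libraries. None of the 32 entered the test.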

How the data were processed

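The authors mapped reads to hg19 with RNA-STAR, kept unique hits passing the BySJout filter and counted them over RefSeq mRNA exons with qCount of QuasR. The strand setting of the counting is not given in the sources used here. The methods describe biological triplicates, a stranded total RNA kit and sequencing of poly-A+ RNA. The labels give 2 replicates a group, which were used. The deposited CPM were used as given, and whole reads could be recovered from them (100% of values within 0.05 reads of a whole number). Entrez identifiers were matched to symbols for 26111 of 26258 genes, and coordinates come from the GRCh37 annotation.

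The 15019 genes that reached 1 CPM in 2 or more libraries were fitted together over all 16 libraries with limma 3.58.1 (trend, R 4.3.3) on log2(CPM + 1). The design compared IR, CR and DMSO with parental cells, IR with CR, the parental lines, and the resistant change between lines. Alternatives were edgeR 4.0.16 and DESeq2 1.42.0 on recovered reads, TMM factors, quantile normalization, pseudocounts of 0.25 and 4 CPM, other filters, groups fitted alone, DMSO reference, replicate block, GC correction and single libraries left out. The limma fit was tested on simulated data.

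Members and gene lists were chosen with earlier results of these data known. Named members were those called the same way in all 4 resistant lines, the 3 largest called rises and falls of each comparison, the 4 TIMPs, fixed members of known role, and those differing between lines. Other members are named to account for the list.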

Additional observations from a re-analysis of the deposited data

Results flagged for a closer look

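For 22 members, the change in resistant cells (mean of IR and CR against parental cells) differed between Huh7 and Hep3B cells in the test of the difference itself (limma, adjusted over all 15019 genes). No result was marked for a library standing apart, since the groups hold 2 libraries. The differences are given on the log2 scale, Huh7 minus Hep3B.

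Among sheddases and other ADAM genes, ADAM19 had a difference of 6.75, ADAM28 of -4.83, ADAM22 of -1.59, ADAM9 of -1.15 and ADAM23 of -0.95. ADAM19 changed by a mean of 4.61 in Huh7 and -2.15 in Hep3B cells, and ADAM28 by -2.56 and 2.28. For both genes the Hep3B mean joins a called change in IR with an uncalled change in CR cells. Of the secreted ADAMTS genes, ADAMTS15 had a difference of 4.76, ADAMTS5 of 1.45, ADAMTS20 of 1.21 and ADAMTS9 of 1.09. Differences in the other direction were found for ADAMTS12 with -2.68, ADAMTS1 with -1.55, ADAMTS6 with -1.49 and ADAMTS3 with -1.0, and for ADAMTSL2 with -1.87. Of the genes of this paragraph, ADAMTSL2 was near 0 in Huh7 cells, and ADAM23, ADAMTS5, ADAMTS15 and ADAMTS20 were near 0 in Hep3B cells. A difference there sets a change in 1 line against a gene that was hardly expressed in the other.

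Among the MMPs the difference was 1.69 for MMP7, 1.25 for MMP19, -1.72 for MMP14, -1.47 for MMP24 and -1.0 for MMP16. Among the inhibitors it was 2.98 for TIMP2, 1.85 for TIMP3 and -1.28 for TIMP4. MMP7, MMP24, TIMP2 and TIMP4 were called higher in both lines. With the DMSO libraries as reference, the differences of MMP24 (-0.27), ADAMTS6 (-0.48) and ADAMTS20 (0.24) were no longer called, nor was that of ADAMTS9 (0.96, adjusted p = 0.0594). Quantile normalization lost the calls of ADAMTS9, MMP16 and MMP24, and the replicate block that of MMP16. A pseudocount of 4 CPM lost those of MMP19, MMP24 and TIMP4, and a pseudocount of 0.25 CPM that of ADAM23. Without the filter on low values, those of ADAM23, ADAMTS3, ADAMTS9, MMP16, MMP24 and TIMP4 were lost. The calls of MMP16 and ADAMTS9 were lost with edgeR, and those of ADAMTS5 and ADAMTS20 with edgeR and DESeq2. The calls of ADAMTSL2 and ADAM23 were lost with edgeR (adjusted p = 1 and 0.435) and with DESeq2 (0.293 and 0.448), and that of MMP7 with edgeR (0.133). The calls of ADAM9, ADAM23, ADAMTS3, ADAMTS6, ADAMTS9, MMP7, MMP16, MMP24 and TIMP4 were each lost when at least 1 single library was left out, and without Hep3B parental replicate 1 the count of 22 fell to 14.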

How the results depend on the processing

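Each comparison was repeated with other settings, and 79 of the 137 calls of named members held in every one of their 16 to 26 alternatives, while 58 were lost in at least 1, among them 11 lost with the DMSO libraries as reference. The number of members changed ranged over the alternatives from 20 to 26 in Huh7-IR, 13 to 22 in Hep3B-IR, 15 to 20 in Huh7-CR, 12 to 21 in Hep3B-CR and 20 to 30 between parental lines, and from 14 to 24 for the line difference. In Huh7 DMSO cells the count of 6 became 12 at an unadjusted p, 3 without the filter on low values, 0 with the groups fitted alone, and 0 to 12 when single libraries were left out. In Hep3B DMSO cells the count of 1 became 8 at an unadjusted p, 2 with DESeq2 and 0 with the groups alone. Between Huh7-IR and Huh7-CR cells, 8 became 15 at an unadjusted p, 14 with DESeq2, 0 with the groups alone and 3 to 10 with single libraries left out, and between the Hep3B regimens 9 became 5 with the groups alone and 5 to 7 with libraries left out. The line difference of 22 ranged from 14 to 21 with libraries left out. Reversed values were the line difference of ADAMTS20 with edgeR (-2.82) and DESeq2 (-2.12) and of ADAMTS5 (-0.82 and -1.09), both near 0 reads in Hep3B cells (the cause was not tested), and, against the DMSO libraries, MMP11 in Huh7-IR (-0.93) and TIMP3 in Hep3B-CR cells (-0.71), where DMSO libraries had more of the gene than parental ones.

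The labels name no shared origin for libraries of the same number, and the correlations of their deviations ranged from -0.22 to 0.439, so a pairing was not shown. With the replicate block 24 members were called in Huh7-IR, 18 in Hep3B-IR, 18 in Huh7-CR and 17 in Hep3B-CR cells, 5 and 1 in the DMSO comparisons, 7 and 9 between regimens, 27 between parental lines and 21 for the line difference. A fit without the DMSO groups, chosen after seeing the data, gave 10 and 9 calls between regimens. With 2 libraries a group, exact permutation of a single value cannot go below 0.333.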
